A study of Homo sapiens with 15 samples.

Results

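ABCC3, CRYAB, DLX2, F3, PODXL and STC2 are among the genes that the study shows as raised in U87MG cells made to express LMO2. Other genes raised there, such as ID1, are outside this set. That LMO2 experiment was not analysed here. These 6 genes were followed in a separate experiment on the ID family, where each was taken by its symbol from a table of 25737 listed genes, and each was found on 1 row. The 6 genes were chosen with earlier results of this ID family experiment known. Their counts beside those of all tested genes are therefore a description only. U87MG is an established human glioblastoma line, and it is the one cell line behind every library. The cells were grown in serum and collected 24 h after a control lentivirus (GFP) or a lentivirus for overexpression of ID1, ID2, ID3 or ID4, with 3 libraries in each of the 5 groups. The libraries were made with the QuantSeq kit, which reads the 3′ ends of polyadenylated transcripts, and levels are given as CPM, the count scaled to the library's total. A log2 fold change (log2FC) comes from edgeR's quasi-likelihood test and is given with its standard error (SE), and a difference counts as significant at a Benjamini-Hochberg adjusted p under 0.05 over all 12870 tested genes, which include all 6. The 4 comparisons with GFP share the same 3 control libraries, so they are not independent of each other.

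Library totals were 11089044 to 15148979 counts, so that 3 counts corresponded to 0.198 to 0.271 CPM. Counts of the ID genes do not check every label. Reads from 3′ ends count a transgene under its gene's symbol only where its transcript carries an end that maps there, and the 3′ ends of the vector transcripts are not given in the sources used here. In the libraries labelled ID1, the ID1 mRNA was at 250 CPM against 344 CPM in GFP, and in those labelled ID2, the ID2 mRNA was at 44.9 CPM against 85.7 CPM. Both falls passed the edgeR test (adjusted p = 5.54e-06 and 3.08e-10). The fall of ID2 mRNA was not particular to its own group, with 34.3, 46.7 and 35.9 CPM in the ID1, ID3 and ID4 groups. ID1 mRNA was lowest in its own group, with 316, 329 and 281 CPM in the ID2, ID3 and ID4 groups. By edgeR, its own group was below ID2 and ID3 (adjusted p = 0.000217 and 0.000307), while the difference from ID4 did not pass (0.111). Against GFP, ID1 mRNA was also lower in ID4 (adjusted p = 0.00131), but ID2 and ID3 did not pass (0.198 and 0.329). ID3 mRNA was at 313 CPM in its own group against 221 CPM in GFP, although it was also at 287 CPM in the ID2 group. ID4 mRNA rose from at most 2 counts in GFP to 223 CPM in its own group. A lower ID1 or ID2 value in its own group thus shows neither that overexpression failed nor that a label is wrong, and groups are named by their labels. LMO2 itself was low, at 43 to 63 counts per GFP library and 3 to 43 per ID library. LMO2 was significantly lower than in GFP in the ID1, ID2 and ID3 groups (log2FC -1.33, adjusted p = 0.00531; -2.29, adjusted p = 5.12e-05; and -1.39, adjusted p = 0.00318), while the ID4 group gave -0.85 (adjusted p = 0.0628). Among the markers of the cell type, the mesenchymal glioma genes VIM and CD44 were abundant (3481 to 4765 and 493 to 616 CPM), and the neural stem cell gene NES was at 16.6 to 29.8 CPM. The glial markers GFAP, S100B and SOX2 had at most 4 counts in any library and OLIG2 at most 11. Markers of other cell types were near the floor, with at most 8 counts for PTPRC and PECAM1, 15 for EPCAM and 1 for RBFOX3.

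LMO2 is an adaptor protein without DNA binding of its own. It joins LDB1 to basic helix-loop-helix factors such as TAL1 and TCF3 and to GATA factors, which read E-box (CANNTG) and GATA letters in DNA. ID proteins are helix-loop-helix proteins that lack the basic, DNA-binding region and hold E proteins such as TCF3 away from E-boxes. The 6 genes have different roles. PODXL encodes podocalyxin, a sialomucin of the cell surface, and F3 encodes tissue factor, the receptor that starts coagulation. ABCC3 is an exporter of organic anions and conjugated drugs, and CRYAB is a small heat shock protein that acts as a chaperone. STC2 is a secreted glycoprotein induced by cellular stress, and DLX2 is a homeodomain transcription factor of forebrain interneuron development.

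The RefSeq promoter table held the start regions of DLX2, F3 and STC2, which are shown because E-box and GATA letters are those that partners of LMO2 and ID proteins read. Each is the 250 bases before the gene's start on GRCh38.p14, 5′ to 3′ on the gene's own strand (the minus strand for all 3), with E-boxes in capitals. They lie at chr2:172102901-172103150, chr1:94541760-94542009 and chr5:173328415-173328664, in this order.
DLX2: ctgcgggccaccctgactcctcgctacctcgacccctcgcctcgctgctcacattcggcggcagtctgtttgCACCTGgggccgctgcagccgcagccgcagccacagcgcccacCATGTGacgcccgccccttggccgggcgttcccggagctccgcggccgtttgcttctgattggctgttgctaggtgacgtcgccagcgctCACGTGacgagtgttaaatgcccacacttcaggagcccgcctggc
F3: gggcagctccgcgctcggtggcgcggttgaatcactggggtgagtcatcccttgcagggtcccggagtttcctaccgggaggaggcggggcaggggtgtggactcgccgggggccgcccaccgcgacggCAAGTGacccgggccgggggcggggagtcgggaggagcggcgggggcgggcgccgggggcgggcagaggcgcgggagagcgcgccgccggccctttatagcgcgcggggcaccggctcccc
STC2: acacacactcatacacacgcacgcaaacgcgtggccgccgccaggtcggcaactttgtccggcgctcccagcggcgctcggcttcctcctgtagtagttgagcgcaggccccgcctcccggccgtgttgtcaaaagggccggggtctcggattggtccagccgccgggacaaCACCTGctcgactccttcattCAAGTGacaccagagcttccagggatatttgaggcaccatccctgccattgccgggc
DLX2 held 3 E-boxes, which began 178, 135 and 45 bases before the start, the last being the palindrome CACGTG. F3 held 1, at 121 bases, and STC2 held 2, at 78 and 57 bases. Of 35116 RefSeq windows of this length, 61.8% held an E-box, with a mean of 1.05 per window. The narrower form CAGNTG was not read on the gene's strand in any of the 3 windows (30.3% of all windows), and its complement was read 1 time each in DLX2 and STC2 and not in F3 (29.8% of all windows). GATA, searched on both strands, was found 1 time in STC2 and not in the DLX2 or F3 windows, and was in 45.6% of windows. The STAT element TTCNNNGAA was in none of the 3 and in 6.6% of windows. The searched motifs did not overlap each other apart from the E-box forms. A match describes the letters only, the general form CANNTG does not tell which factor would read it, and no binding was measured here.

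Compared with GFP, 3 of the 6 genes passed the threshold in the ID1 group, 4 in the ID2 group, 5 in the ID3 group and 5 in the ID4 group. The share of all tested genes that passed in the same comparisons was 22.1%, 35.1%, 28.6% and 21.6%. Because the 6 genes were chosen with earlier results of these data known, they are not an independent set. Setting their counts and median sizes beside all tested genes describes them and tests nothing. PODXL and CRYAB were higher in all 4 ID groups, which held for 6.11% of all tested genes, and STC2 was lower in all 4, which held for 4.16%. ABCC3 was higher in 3 of the 4 groups, F3 was lower in 2 of them, and DLX2 passed in none. Thus, the direction was not shared by the 6 genes: 2 rose and 1 fell in the ID1 group, 3 rose and 1 fell in the ID2 group, and 3 rose and 2 fell in both the ID3 and the ID4 groups. The shares of all tested genes called higher were 12.4%, 18.5%, 15.1% and 12.1% for ID1 to ID4, and those called lower were 9.73%, 16.7%, 13.5% and 9.51%. The median size of the log2FC, without sign, was 0.67, 1.18, 0.93 and 1.06 over the 6 genes for ID1 to ID4, beside 0.16, 0.21, 0.18 and 0.16 over all tested genes. Libraries did not overlap with GFP for 3 genes on the higher side and 2 on the lower side in ID1 (21% and 16.1% of all tested genes), 3 and 1 in ID2 (20.5% and 21.8%), 3 and 2 in ID3 (22.8% and 17.8%) and 3 and 2 in ID4 (19.5% and 17.6%). In these bulk libraries, fewer cells with a transcript and less of it per cell cannot be told apart.

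**Figure D1:**
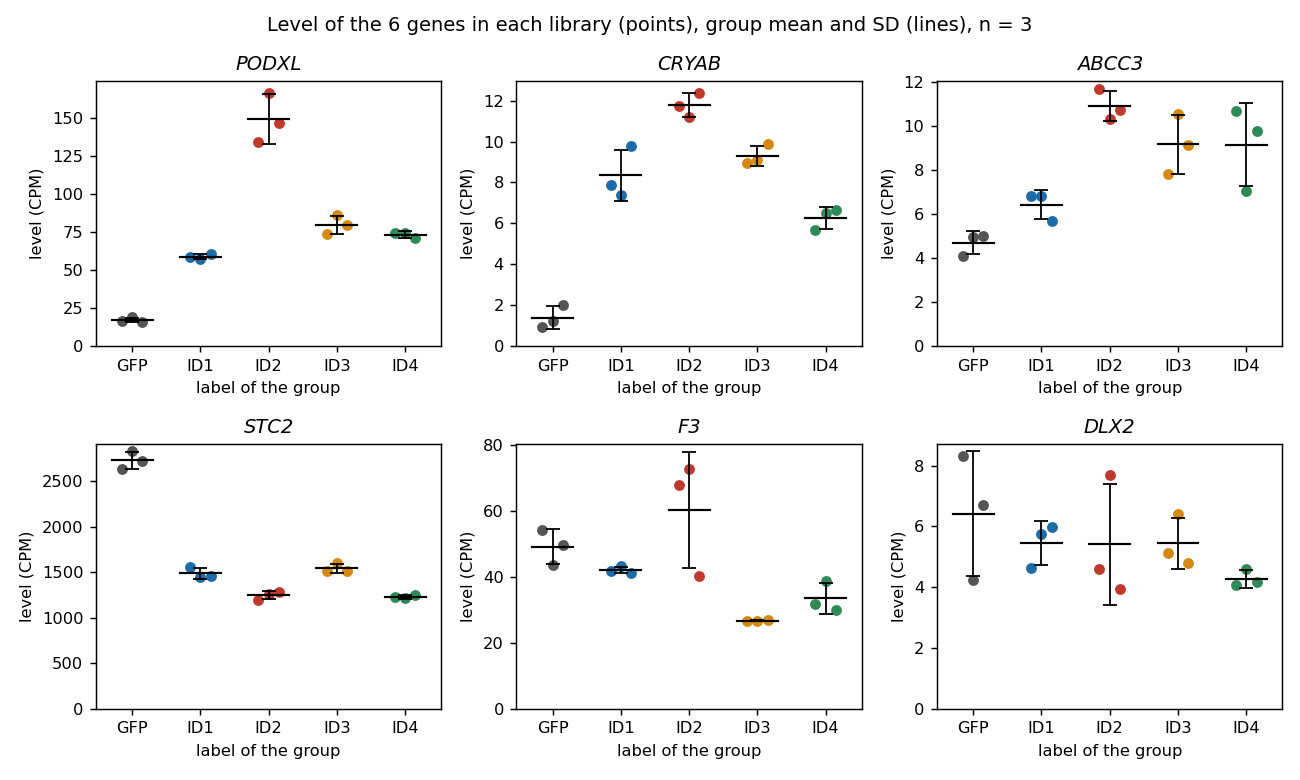
CPM of each of the 6 genes in each library (points) of the 5 groups, with the group mean and SD (lines, n = 3); each panel has its own vertical axis. PODXL and CRYAB sit above GFP in every ID library and STC2 below it, while the DLX2 libraries of GFP and ID groups overlap.

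PODXL, the sialomucin, was higher in all 4 ID groups and highest in ID2. Its level was 16.6, 18.8 and 16.1 CPM in the 3 GFP libraries (replicates 1 to 3). It was 58.5, 57.3 and 60.7 CPM in ID1 and 134, 167 and 146 CPM in ID2. It was 73.5, 85.8 and 79.5 CPM in ID3 and 74.3, 74.5 and 70.7 CPM in ID4. No ID library overlapped with GFP, and each ID2 library exceeded every library of the other groups. The means rose from 17.1 ± 1.46 CPM (SD, n = 3) in GFP to 58.8 ± 1.76 in ID1, 149 ± 16.3 in ID2, 79.6 ± 6.13 in ID3 and 73.2 ± 2.11 in ID4. The log2FC against GFP was 1.76 (SE 0.09, adjusted p = 1.99e-12), 3.14 (SE 0.09, adjusted p = 3.41e-17), 2.20 (SE 0.09, adjusted p = 5.33e-14) and 2.09 (SE 0.09, adjusted p = 1.39e-13) for ID1 to ID4, which is 3.40-, 8.80-, 4.58- and 4.26-fold. By this measure PODXL was the 21st most raised of all tested genes in the ID2 group, and the 88th, 42nd and 41st in ID1, ID3 and ID4. Across the ID groups the order was ID2, ID3, ID4, ID1. ID2 exceeded ID3 1.92-fold (adjusted p = 1.54e-08), ID4 2.06-fold (adjusted p = 1.42e-09) and ID1 2.59-fold (adjusted p = 3.35e-11). ID3 exceeded ID1 1.35-fold (adjusted p = 0.00112). The neighbours ID3 and ID4 did not differ beyond their spread (log2FC 0.10, 95% interval -0.06 to 0.26, adjusted p = 0.440). The difference between ID4 and ID1 was 1.26-fold (adjusted p = 0.0145), and this call was lost without ID1 replicate 1 (adjusted p = 0.0551), ID1 replicate 2 (0.0701), ID4 replicate 1 (0.0719) or ID4 replicate 2 (0.0576). PODXL lies on GRCh37 at chr7:131185021-131242976, on the minus strand. The annotation places the pseudogene RPL31P36 within this span on the opposite strand; it is not a row of the table.

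CRYAB, the small heat shock protein, started from the lowest counts of the 6 genes. The GFP libraries held 13, 15 and 24 counts, or 0.916, 1.24 and 2.01 CPM, above the floor of 3 counts but with a coefficient of variation of 40.4%. The level was 7.86, 7.40 and 9.77 CPM in ID1 and 11.7, 11.2 and 12.4 CPM in ID2. It was 8.94, 9.11 and 9.87 CPM in ID3 and 5.67, 6.49 and 6.66 CPM in ID4. All 12 ID libraries were above all 3 GFP libraries. The means were 1.39 ± 0.561 CPM (SD, n = 3) in GFP, 8.34 ± 1.26 in ID1, 11.8 ± 0.585 in ID2, 9.31 ± 0.498 in ID3 and 6.28 ± 0.527 in ID4. The log2FC was 2.59 (SE 0.21, adjusted p = 3.47e-09), 3.12 (SE 0.20, adjusted p = 4.05e-11), 2.74 (SE 0.20, adjusted p = 9.74e-10) and 2.19 (SE 0.22, adjusted p = 1.40e-07) for ID1 to ID4, which is 6.01-, 8.68-, 6.68- and 4.56-fold. CRYAB was therefore among the 36 most raised tested genes in each ID group, and the 17th in the ID3 group.

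Among the ID groups, the CRYAB level was in the order ID2, ID3, ID1, ID4. The largest step, ID2 over ID4, was 1.90-fold (adjusted p = 0.000153). The neighbours ID2 and ID3 (log2FC 0.38, 95% interval 0.08 to 0.67, adjusted p = 0.0809), ID3 and ID1 (ID1 minus ID3 -0.15, -0.46 to 0.16, adjusted p = 0.577) and ID1 and ID4 (0.40, 0.07 to 0.73, adjusted p = 0.186) did not pass the threshold. ID2 was 1.45-fold above ID1 (adjusted p = 0.0124), a call that was lost without ID1 replicate 1 (adjusted p = 0.052), without ID1 replicate 2 (0.0692) and with limma on the deposited log2 values (0.0771). ID3 was 1.46-fold above ID4 (adjusted p = 0.0258). This call was lost without any 1 of the 6 libraries compared: adjusted p was 0.0511, 0.0630 and 0.0698 without ID3 replicates 1, 2 and 3, and 0.116, 0.0592 and 0.0506 without ID4 replicates 1, 2 and 3. CRYAB lies at chr11:111779288-111794446 on the minus strand of GRCh37 and overlaps HSPB2, HSPB2-C11orf52 and C11orf52 on the plus strand. The counting setting for strand is not given in the sources used here. Whether the counting told reads of HSPB2 and CRYAB apart by strand is therefore not known. HSPB2 had 0 to 14 counts per library, HSPB2-C11orf52 had 0 and C11orf52 had 0 to 5.

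ABCC3, the exporter, rose less than PODXL and CRYAB. Its level was 4.08, 4.97 and 5.02 CPM in GFP, with 58 to 60 counts per library. It was 6.80, 6.80 and 5.67 CPM in ID1 and 11.7, 10.3 and 10.7 CPM in ID2. It was 7.83, 10.5 and 9.13 CPM in ID3 and 10.7, 7.03 and 9.76 CPM in ID4. Every ID library was above every GFP library, although ID4 replicate 2 was close to the ID1 libraries. The log2FC was 1.24 (SE 0.17, adjusted p = 4.66e-06) in ID2, 0.95 (SE 0.17, adjusted p = 0.000212) in ID3 and 0.98 (SE 0.17, adjusted p = 0.000233) in ID4, or 2.36-, 1.93- and 1.97-fold. In ID1 it was 0.45 (SE 0.18, 95% interval 0.08 to 0.82, adjusted p = 0.0791), which did not pass. The mean was 4.69 ± 0.527 CPM (SD, n = 3) in GFP, 6.42 ± 0.652 in ID1, 10.9 ± 0.689 in ID2, 9.16 ± 1.35 in ID3 and 9.15 ± 1.89 in ID4.

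By mean CPM, ABCC3 was highest in ID2, nearly equal in ID3 and ID4, and lowest in ID1, and ID2 against ID1 was the one significant pair, at 1.73-fold (adjusted p = 0.00107). ID2 and ID3 (log2FC 0.29, 95% interval -0.03 to 0.60, adjusted p = 0.222) and ID3 and ID4 (-0.03, -0.35 to 0.30, adjusted p = 0.944) did not differ beyond their spread. The lower level in ID1 than in ID3 (-0.50, -0.84 to -0.17, adjusted p = 0.0511) and in ID4 (-0.53, -0.87 to -0.19, adjusted p = 0.0651) lay just outside the threshold. It came inside without ID3 replicate 1 (-0.62, adjusted p = 0.0402) and without ID4 replicate 2 (-0.68, adjusted p = 0.0178), respectively. With 1 library left out at a time, adjusted p went up to 0.217 for ID1 against ID3 (log2FC -0.62 to -0.38). For ID1 against ID4 it went up to 0.317 (-0.68 to -0.41). ABCC3 lies at chr17:48712138-48769614 on the plus strand of GRCh37.

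STC2, the secreted glycoprotein, moved the other way and was measured with the most counts, 13437 to 37418 per library. Its level was 2635, 2828 and 2715 CPM in GFP. It was 1561, 1451 and 1454 CPM in ID1 and 1197, 1258 and 1281 CPM in ID2. It was 1508, 1601 and 1515 CPM in ID3 and 1225, 1212 and 1254 CPM in ID4. Every ID library was below every GFP library. The libraries formed 2 levels among the ID groups: ID1 and ID3 at 1451 to 1601 CPM and ID2 and ID4 at 1197 to 1281 CPM, without overlap. The means were 2726 ± 96.9 CPM (SD, n = 3) in GFP, 1489 ± 62.2 in ID1, 1245 ± 43.3 in ID2, 1541 ± 51.8 in ID3 and 1230 ± 21.7 in ID4. The log2FC was -0.89 (SE 0.05, adjusted p = 6.24e-12), -1.11 (SE 0.05, adjusted p = 7.31e-14), -0.84 (SE 0.05, adjusted p = 1.41e-11) and -1.15 (SE 0.05, adjusted p = 1.34e-13), so that 0.540, 0.462, 0.557 and 0.450 of the GFP level remained. In the ID4 group, STC2 was the 58th most lowered of all tested genes.

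Each pair of ID groups that crossed this split of STC2 passed the edgeR test. The split was read from the same libraries, so these tests describe it and are no separate evidence for it. ID1 was above ID2 (log2FC 0.23, adjusted p = 0.00205) and ID4 (0.26, adjusted p = 0.00151), and ID3 was above ID4 (0.31, adjusted p = 0.00022). ID2 was below ID3 (-0.27, adjusted p = 0.000506). Within the levels, ID1 minus ID3 was -0.05 (95% interval -0.15 to 0.05, adjusted p = 0.620) and ID2 minus ID4 was 0.04 (-0.06 to 0.14, adjusted p = 0.658). These differences among ID groups were at most 1.24-fold, smaller than the fall from GFP. STC2 lies at chr5:172741726-172755450 on the minus strand of GRCh37.

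F3, the coagulation receptor, was the one member whose fitted changes against GFP had both signs. Its level was 54.1, 43.7 and 49.7 CPM in GFP. It was 41.8, 43.2 and 41.2 CPM in ID1 and 67.8, 72.8 and 40.3 CPM in ID2. It was 26.8, 26.7 and 26.8 CPM in ID3 and 31.7, 38.7 and 30.04 CPM in ID4. The ID1, ID3 and ID4 libraries were all below GFP, those of ID1 by the smallest margin, and ID2 replicate 3 stood apart from the other ID2 libraries and below every GFP library. The log2FC was -0.90 in ID3 (SE 0.15, adjusted p = 7.05e-05) and -0.56 in ID4 (SE 0.14, adjusted p = 0.00687), which left 0.536 and 0.677 of the GFP level. In ID1 it was -0.24 (SE 0.14, 95% interval -0.53 to 0.05, adjusted p = 0.248). In ID2 it was 0.31 (SE 0.14, 0.02 to 0.59, adjusted p = 0.0891), and without ID2 replicate 3 it was 0.52 (adjusted p = 2.1e-05). With 1 library left out at a time, the ID2 value ranged from 0.15 to 0.52, with adjusted p up to 0.447. The means were 49.2 ± 5.23 CPM (SD, n = 3) in GFP, 42.1 ± 1.04 in ID1, 60.3 ± 17.5 in ID2, 26.7 ± 0.0507 in ID3 and 33.5 ± 4.60 in ID4. The SD in ID3, from 358 to 386 counts per library, was smaller than counting error alone, so it does not measure precision.

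Among the ID groups, F3 was in the order ID2, ID1, ID4, ID3. ID2 was 2.31-fold above ID3 (adjusted p = 4.72e-06), the 49th largest rise among all tested genes in that comparison, and 1.83-fold above ID4 (adjusted p = 0.000142). ID1 was 1.58-fold above ID3 (adjusted p = 0.00627). ID2 was 1.46-fold above ID1 (adjusted p = 0.00718), although their libraries overlapped, and without ID2 replicate 2 the log2FC of ID1 against ID2 was -0.39 (adjusted p = 0.0563). The neighbours ID1 and ID4 (0.32, 95% interval 0.02 to 0.62, adjusted p = 0.257) and ID4 and ID3 (ID3 minus ID4 -0.34, -0.65 to -0.02, adjusted p = 0.163) did not pass. F3 lies at chr1:94994729-95007315 on the minus strand of GRCh37.

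DLX2, the homeodomain factor, did not pass in any of the 10 comparisons. Its level was 8.31, 4.23 and 6.70 CPM in GFP, from 118, 51 and 80 counts. It was 4.62, 5.76 and 5.97 CPM in ID1 and 4.59, 7.69 and 3.94 CPM in ID2. It was 5.13, 6.40 and 4.79 CPM in ID3 and 4.06, 4.60 and 4.16 CPM in ID4. The groups overlapped apart from ID4, which was below ID1 and ID3, and the spread within GFP (coefficient of variation 32.1%) and within ID2 (36.99%) was comparable with the differences between means. The means were 6.41 ± 2.06 CPM (SD, n = 3) in GFP, 5.45 ± 0.724 in ID1, 5.41 ± 2.0 in ID2, 5.44 ± 0.852 in ID3 and 4.27 ± 0.285 in ID4. The log2FC against GFP was -0.26 (95% interval -0.74 to 0.21, adjusted p = 0.467), -0.24 (-0.71 to 0.24, adjusted p = 0.456), -0.27 (-0.74 to 0.21, adjusted p = 0.424) and -0.60 (-1.10 to -0.10, adjusted p = 0.0818) for ID1 to ID4. With all libraries in the fit, a rise beyond log2FC 0.24 lay outside each of these intervals. This bound depends on the libraries used. Leaving out 1 library at a time gave -0.48 to -0.03 in ID1, -0.58 to -0.0077 in ID2 and -0.48 to -0.03 in ID3. Without GFP replicate 2, the ID4 value was -0.82 (adjusted p = 0.0183). With 1 library left out at a time, this value ranged from -0.82 to -0.37, with adjusted p up to 0.381. No pair of ID groups differed by more than 0.36 on the log2 scale, with adjusted p from 0.336 to 0.999. DLX2 lies at chr2:172964166-172967628 on the minus strand of GRCh37.

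**Figure D2:**
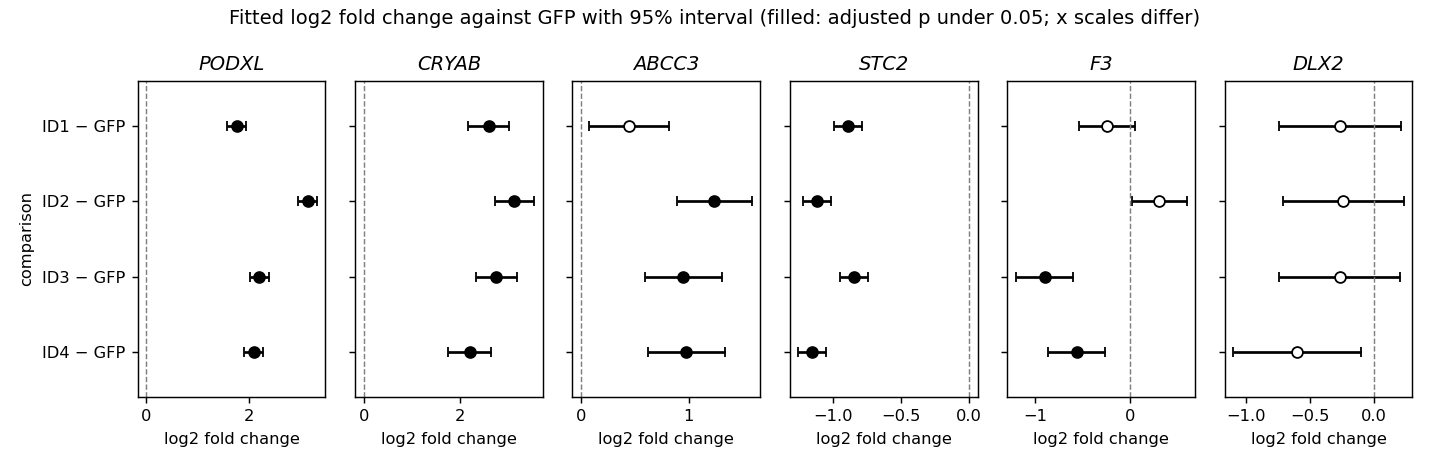
log2 fold change of each gene in each ID group against GFP, with its 95% interval (horizontal bars) from edgeR; filled points have an adjusted p under 0.05, and the horizontal scales differ between panels. PODXL and CRYAB are to the right of 0 and STC2 to the left in all 4 groups, F3 is on both sides, and no DLX2 point is filled.

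**Figure D3:**
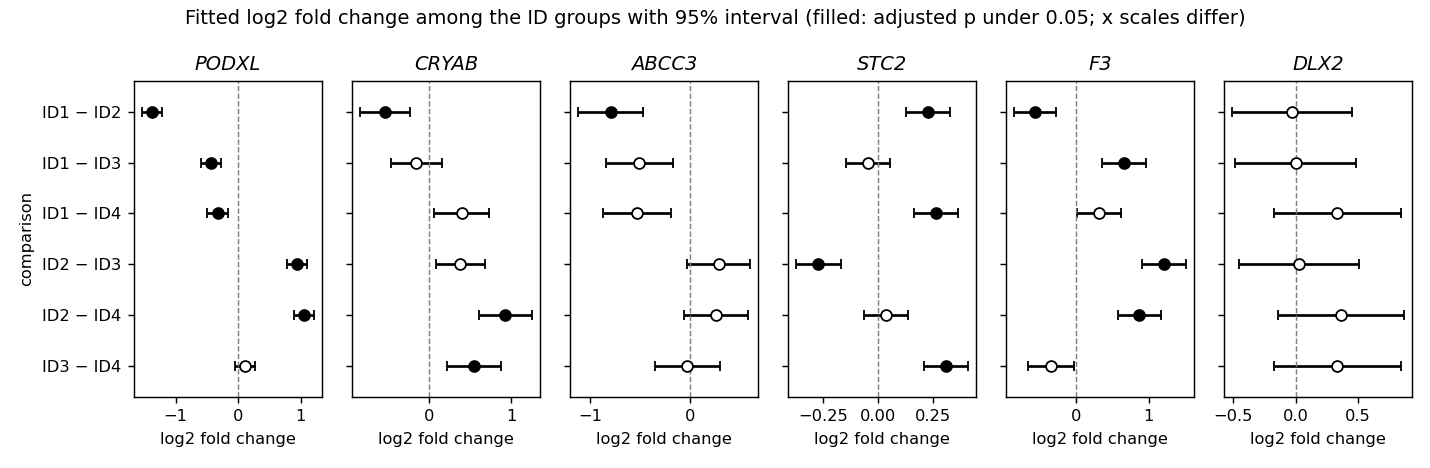
log2 fold change of each gene between each pair of ID groups (first group over second), with its 95% interval from edgeR; filled points have an adjusted p under 0.05, and the horizontal scales differ between panels. PODXL passes in 5 of the 6 pairs, STC2 and F3 in 4, CRYAB in 3, ABCC3 in 1 and DLX2 in 0.

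Differences among the ID groups were also tested without any GFP library as reference, by 3 contrasts together. In this test 5 of the 6 genes differed, against 29.1% of all tested genes. Given how the genes were chosen, this count and those by pair below are a description only. The adjusted p was 2.93e-11 for PODXL, the 25th smallest p of all tested genes, 8.59e-06 for F3, 4.56e-05 for STC2, 0.00071 for CRYAB and 0.00463 for ABCC3. DLX2 gave 0.556. By pair, 5 of the 6 genes passed between ID1 and ID2 (18.6% of all tested genes), 2 between ID1 and ID3 (9.18%) and 2 between ID1 and ID4 (4.87%). There were 3 between ID2 and ID3 (15%), 3 between ID2 and ID4 (18.6%) and 2 between ID3 and ID4 (11.3%). PODXL, CRYAB, ABCC3 and F3 each had their highest mean in the ID2 group. For CRYAB and ABCC3 the edgeR test did not part ID2 from ID3 (adjusted p = 0.0809 and 0.222). STC2 and DLX2 had their highest ID mean in ID3 and ID1, respectively, and their lowest in ID4. For STC2 the test parted neither ID3 from ID1 (adjusted p = 0.620) nor ID4 from ID2 (0.658), and for DLX2 it parted no pair.

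**Figure D4:**
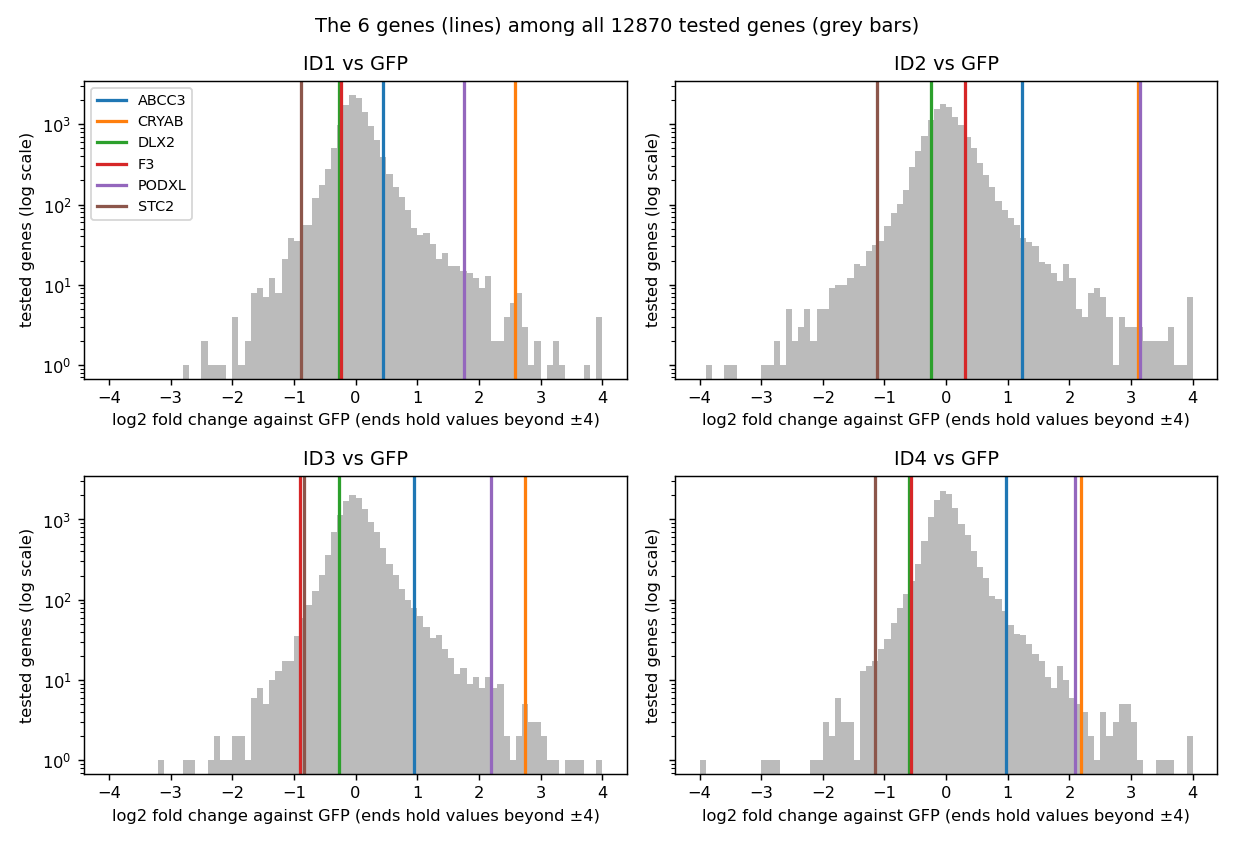
Histograms of the log2 fold change against GFP of all tested genes in each ID group (grey bars, number of genes on a log axis, with values beyond 4 on either side in the end bars), with the 6 genes marked as lines. PODXL and CRYAB lie in the right tail in each panel and STC2 in the left tail. DLX2 lies within or near the bulk in ID1 to ID3 and further to the left in ID4 (-0.60, the 374th most lowered).

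The genes whose level followed a member most closely were found by the root mean square (RMS) difference between log2 CPM values over the 15 libraries, each centred on its own mean. The 15 points share 5 groups and the same libraries. For PODXL, whose own RMS spread was 1.03, they were FAM198B (0.23), WNT5B (0.32) and SOST (0.33), and for CRYAB (own spread 1.09) they were FAM198B (0.29), HAS1 (0.29) and LFNG (0.33). FAM198B was thus the nearest to both members, with 13.6, 56.3, 102, 69.1 and 47.8 CPM in GFP and ID1 to ID4. STC2 (own spread 0.42) was followed by NUPR1 (0.11), ZNF395 (0.12) and AHRR (0.12), and NUPR1 went from 394 CPM in GFP to 196 to 229 CPM in the ID groups. For ABCC3 (own spread 0.46) they were THBS3, FBN1 and LOXL1 (each 0.19), of which FBN1 and LOXL1 are genes of elastic fibres of the extracellular matrix. For F3 (own spread 0.45) the nearest were ARTN (0.26), PRKCD (0.27) and MARCKSL1 (0.27). For DLX2 the nearest genes, TMSB15B (0.22), IRF2 (0.24) and GYG1 (0.24), stood beside an own spread of 0.32.

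Genes next to the members on the chromosome changed little at the median. The 20 nearest tested genes, 10 on each side, had a median log2FC against GFP between -0.17 and 0.23 for every member and ID group. They spanned 1.16 megabases around ABCC3 and up to 7.17 megabases around F3. The median over all tested genes lay between -0.004 and 0.001 in these comparisons. Around PODXL the median was -0.04 in ID2, beside 3.14 for PODXL. Around CRYAB it was 0.23 in ID2, beside 3.12 for CRYAB, and around STC2 it was 0.10 in ID4, beside -1.15 for STC2. Single neighbours moved more, from -1.975 (around PODXL in ID2) to 1.57 (around STC2 in ID2). Around ABCC3 in ID4 the highest was 1.025, beside 0.976 for ABCC3. Around F3 in ID2 the neighbours ran from -1.895 to 0.992, beside 0.31 for F3.

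Relatives and partners of the 6 genes were described from lists of 55 genes, of which 36 were tested and 9 had at most 3 counts in every library. Against GFP, 11 of the 36 were higher and 6 lower in ID1, 17 and 6 in ID2, 15 and 6 in ID3, and 15 and 7 in ID4. Of all tested genes, 12.4%, 18.5%, 15.1% and 12.1% were called higher and 9.73%, 16.7%, 13.5% and 9.51% lower for ID1 to ID4. The same shares apply to the counts of each list below. The lists were chosen with earlier results of these data known, so their counts are a description only.

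Of the partners of PODXL, 3, 4, 2 and 4 of the 5 tested genes were higher in ID1 to ID4 and none lower. Podocalyxin is linked to the actin cytoskeleton by the PDZ scaffolds NHERF1 and NHERF2, encoded by SLC9A3R1 and SLC9A3R2, and by ezrin (EZR). SLC9A3R1 was higher in all 4 ID groups, 1.70- to 2.67-fold, with a mean of 31.9 CPM in GFP and 86.3 CPM in ID3. SLC9A3R2 was higher in all 4, 2.52- to 3.94-fold, from low counts (2 to 56 per library). EZR was higher in 3 groups, at 1.07- to 1.22-fold over the 4. RDX, which encodes the related radixin, was higher in 1 group, at 0.936- to 1.15-fold. The sialomucin CD34 had 0 to 12 counts and PODXL2 0 to 2 counts per library.

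Of the small heat shock proteins and regulators listed beside CRYAB, 6 of 10 genes were tested. Of them, 2, 3, 2 and 3 were higher in ID1 to ID4, and HSF1 was lower in ID2 and ID4. HSPB3 rose 2.72- to 12.2-fold in all 4 groups, the highest in ID2 (4.20 CPM against 0.344 CPM in GFP), with 4 to 65 counts per library. HSPB6 (1.24- to 1.73-fold) and HSPB1 (1.12- to 1.50-fold), which encodes the abundant HSP27, were each higher in 3 groups. HSF1, the heat shock transcription factor, was at 0.808 to 0.980 of the GFP level. CRYAA, the lens form, had at most 1 count.

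Of the ABC transporters listed beside ABCC3, 1, 3, 3 and 2 of the 8 tested genes were higher in ID1 to ID4 and none was lower. ABCC2, another exporter of conjugates, was higher in 3 groups at 1.57- to 2.28-fold over the 4 groups, and ABCC6 in 3 groups at 1.27- to 1.85-fold. ABCC9, a subunit of a potassium channel, was higher in 2 groups at 1.27- to 1.70-fold, and ABCC4 in 1 group at 1.18- to 1.26-fold. The multidrug exporter ABCB1 had 0 to 4 counts, and ABCC8 and ABCC12 had at most 1.

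For F3, the list held its ligand, its inhibitors and the protease-activated receptors. F7, the ligand of tissue factor, and F10, a substrate of their complex, had at most 1 and 5 counts per library. TFPI2, a Kunitz-type protease inhibitor, was lower in all 4 groups, at 0.477 to 0.790 of GFP, and TFPI, the inhibitor of the tissue factor pathway, was lower in 3, at 0.781 to 0.918. The thrombin receptor F2R was higher in all 4 at 1.14- to 1.26-fold, and F2RL2, the receptor PAR3, was higher in all 4 at 1.88- to 2.59-fold. Of the 5 tested, 2 were higher in each ID group, and 2, 1, 2 and 2 were lower in ID1 to ID4.

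STC2 binds and inhibits the protease PAPPA, which cleaves IGFBP4 and so frees insulin-like growth factors. Of the 7 tested genes of this list, 2, 1, 2 and 2 were higher and 4 lower in each of ID1 to ID4. IGFBP4 was lowered more than STC2 in each group, at 0.256 to 0.466 of GFP (adjusted p at most 1.05e-12), from 196 CPM in GFP to 50.8 CPM in ID1. The receptor IGF1R was higher in all 4 at 1.48- to 2.52-fold, and PAPPA was higher in 3 at 1.11- to 1.40-fold. ATF4, a stress transcription factor, was lower in all 4 at 0.580 to 0.702 of GFP. The other lowered genes, named after their values were seen, were STC1 (0.765 to 0.858) and DDIT3 (0.802 to 0.872).

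DLX2 did not pass, while some of its relatives did. Of the 5 tested genes of this list, 1, 4, 4 and 2 were higher in ID1 to ID4 and none was lower. DLX5, another homeodomain factor of the family, was higher in all 4 groups at 5.36- to 7.56-fold, from 2 to 27 counts per library. DLX6, its genomic neighbour, was higher in 3 groups at 1.43- to 2.92-fold, DLX1 in 2 at 1.13- to 1.32-fold, and DLX4 in 1 at 1.64- to 2.25-fold with 5 to 15 counts. Of the genes for enzymes of GABA synthesis, GAD2 had at most 4 counts per library. GAD1, named after its values were seen, had 191 to 310 counts per library and was higher in ID2 (1.27-fold, adjusted p = 0.00786), at 1.06- to 1.27-fold over the 4 groups.

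**Figure D5:**
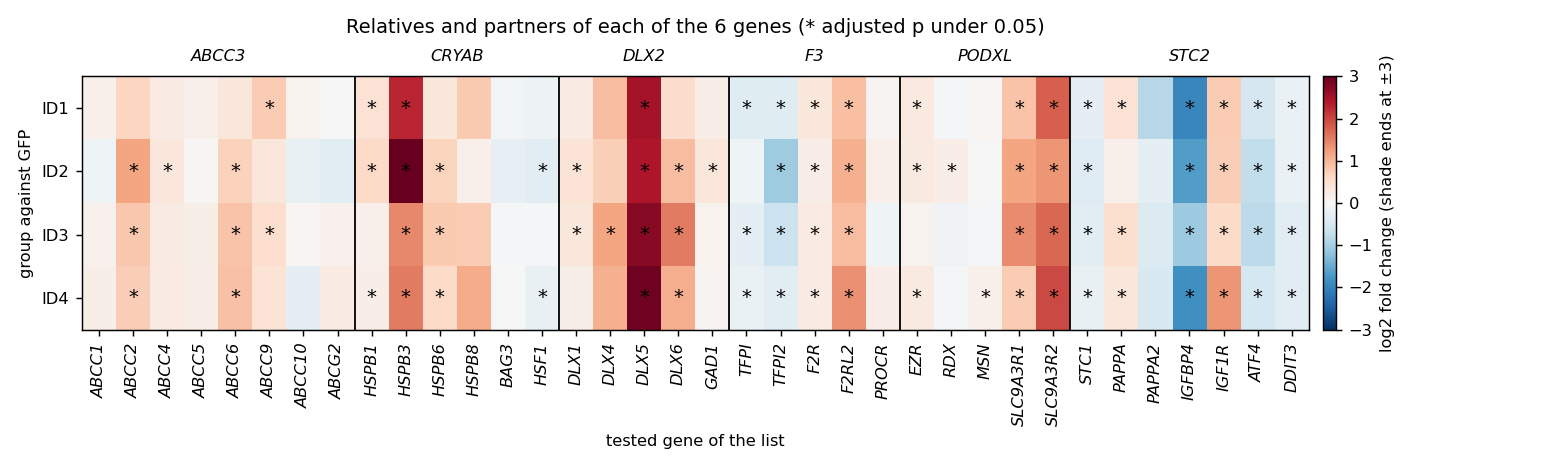
Heat map of the log2 fold change against GFP (color, red higher and blue lower, with the shade ending at 3 on either side) of each tested gene of the relatives and partners lists (columns, grouped by member) in the 4 ID groups (rows); asterisks mark an adjusted p under 0.05. HSPB3, DLX5, SLC9A3R1 and SLC9A3R2 are red and IGFBP4 blue, each with an asterisk in all 4 rows.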

How the data were processed

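RNA was collected from U87MG cells 24 h after transduction, in 5 groups of 3 libraries, with groups and replicate numbers taken from the labels. The libraries were prepared and processed by eBiogen against hg19 (GRCh37). The submitters' processing notes name Bowtie2 and BWA without a role. The counting tool, its strand setting and the annotation are not given in the sources used here. The authors deposited raw counts per gene, without normalization, in 15 columns. They also deposited log2 values normalized between libraries, in 15 columns, which the label calls quantile normalized. These log2 values were used for the filter on low genes and for limma.

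Of 25737 listed rows, the upper part by mean deposited log2 (at least 3.22; 12870 rows) was tested with edgeR 4.0.16 in R 4.3.3 (TMM factors 0.978 to 1.026, quasi-likelihood test, 1 mean per group over 15 libraries, common dispersion 0.00463). Adjustment was by Benjamini-Hochberg over all tested genes. Intervals are 95% intervals of the moderated fit. CPM are counts scaled to the library total, and 286 symbols occur on more than 1 row, none of them a member. The labels do not say whether the 3 libraries of a group came from separate cultures, so p-values measure the spread between these libraries. Replicate pairs differed by more than sampling noise (chi-square per degree of freedom 2.24 to 11.3). The highest values, 10.7 and 11.3, were those of ID2 replicate 3 with ID2 replicates 1 and 2. Replicates 1 and 2 of ID2 gave 3.30, and the highest value outside ID2 was 5.19. ID2 replicate 3 thus stood apart over all tested genes, and it enters every ID2 mean and test. No molecular identifiers are named, so floors cover counting error only.

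The members and the lists of relatives and partners were chosen with earlier results of these data known. Named genes were the members, LMO2, ID1 to ID4, markers, at most 4 genes per list that passed against GFP with the largest change, genes needed to say where a list was near 0, and the 3 genes closest to each member. Alternatives were other filters on low counts, DESeq2 1.42.0 and its size factors, limma 3.58.1 on the deposited log2 values, a fold threshold, only the groups compared, a replicate block, and leaving out each library. Positions came from GENCODE lifted to GRCh37 and promoters from RefSeq on GRCh38.p14, where 3 of the 6 members matched. Figures were drawn with matplotlib 3.10.9.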

Additional observations from a re-analysis of the deposited data

Results flagged for a closer look

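F3 differed between the ID2 group and both the ID3 and the ID4 group, whose fitted changes against GFP had the opposite sign. The log2 difference was 1.21 for ID2 against ID3 (adjusted p = 4.72e-06) and 0.87 for ID2 against ID4 (adjusted p = 0.000142), each by edgeR's test of the difference itself. The rise of ID2 over GFP did not pass on its own (0.31, adjusted p = 0.0891). ID2 replicate 3, at 40.3 CPM, was apart from the other ID2 libraries at 67.8 and 72.8 CPM.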

How the results depend on the processing

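Over the 60 differences of the 6 genes, 840 values were computed under other settings; 768 kept their direction and side of the threshold, 35 fell outside it, 19 came inside it and 18 changed sign, all of these 18 in differences that had not passed. When a log2FC beyond 1 was demanded in addition, the tested genes called against GFP were 384, 569, 376 and 323 for ID1 to ID4. Those called were then 155 for ID1 against ID2, 64 for ID1 against ID3, 72 for ID1 against ID4, 151 for ID2 against ID3, 214 for ID2 against ID4 and 105 for ID3 against ID4. Under this fold threshold 2 members passed for ID3 and 3 for ID4 against GFP, 1 each for ID1 against ID2, ID2 against ID3 and ID2 against ID4, and 0 for ID1 against ID3, ID1 against ID4 and ID3 against ID4. With only the groups compared, 1064 genes passed for ID1 against ID4 (627 with all libraries) and 1073 for ID2 against ID3 (1935), and 4 members for ID1 against ID4 (2). With no filter on low counts, 4 members passed for ID1 against ID4, and with limma 1 member passed for ID3 against ID4. The cause of these changes was not tested, apart from the fold threshold, which removes small changes by construction.

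F3 came inside the threshold with no filter, and apart from ID2 against GFP also with only the groups compared, in ID1 and ID2 against GFP (adjusted p = 0.0275 and 0.0013), ID1 against ID4 (0.0102) and ID3 against ID4 (0.00421). DLX2 in ID4 against GFP did so with no filter (0.0143) and with only the groups compared (0.0438). ABCC3 in ID1 against ID3 did so with filterByExpr (0.0482), no filter (0.018), DESeq2 (0.0458) and only the groups compared (0.0316), and in ID1 against ID4 with no filter (0.0211) and only the groups compared (0.0467). With 1 library left out at a time, the genes called ranged from 634 to 1165 for ID1 against ID3, 363 to 423 for ID1 against ID4, and 800 to 1377 for ID3 against ID4. The members called ranged from 1 to 2 for ID1 against ID4 and were 1 in each case for ID3 against ID4. Sign changes were in ABCC3, ID3 against ID4 (-0.18 to 0.10 with 1 library left out), and in DLX2. DLX2 in ID1 against ID2 was 0.0243 with limma and -0.21 to 0.31 with 1 library left out. In ID2 against ID3 it was -0.022 with limma and -0.31 to 0.21 with 1 library left out. In ID1 against ID3 it was -0.0016 with filterByExpr, -0.0047 with no filter, -0.0011 with DESeq2 size factors, -0.0015 with only the groups compared and -0.0809 to 0.14 with 1 library left out.

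The replicate number as a block changed no call of a member, and the members called stayed at 3, 4, 5 and 5 for ID1 to ID4 against GFP, with 2713, 4363, 3517 and 2585 tested genes called. Libraries with equal numbers did not deviate together (30 pairs, correlation -0.33 to 0.30, mean -0.03), so the numbers were not taken as pairs. Counts were low for CRYAB in GFP (13 to 24 per library), and DLX2 had 51 to 118 per GFP library.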
